A study of Mus musculus with 6 samples.

Results

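Interferon-stimulated genes are the genes a cell switches on when it senses interferon, and 34 of them were followed here in sorted mouse mammary luminal progenitor cells (LPs). They were chosen by symbol from a list of interferon response and antigen processing genes outside MHC class II. All 34 were found, each as 1 cluster among the 18537 known-gene clusters in the deposited table, and all 34 passed the filter on low reads that left 13692 genes to test. By role they were 4 transcription factors, 3 RNA sensors, 17 antiviral effectors, 2 genes of the ISG15 system, 5 interferon-inducible GTPases and 3 genes of antigen processing.

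LPs were sorted as lineage-negative CD24lo CD29+ CD61+ cells from the mammary glands of adult nulliparous females, after cells with CD45, Ter119, CD31 or BP-1 had been depleted. The mice were wild type (*Robo1+/+*) or carried the *Robo1tm1Matl* allele on both chromosomes (*Robo1-/-*), which is mutated in every cell of the animal and not in LPs alone. Both genotypes came from *Robo1+/-* parents. Poly(A)+ RNA was sequenced in 3 libraries per genotype, each pooling 2 animals, and the libraries are named gh03, gh09 and gh15 (*Robo1+/+*) and gh06, gh12 and gh18 (*Robo1-/-*).

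Interferons of type I and type III bind their receptors on the cell surface and activate the kinases JAK1 and TYK2. Their signal reaches a complex that contains STAT2 and IRF9 and binds the interferon-stimulated response element (ISRE) in the promoters of its targets. Promoters that respond to interferon gamma often hold the gamma-activated site (GAS), and IRF1 drives part of that response. Epithelial cells keep a low level of many of these genes without infection, and raise them when RNA sensors detect foreign or misplaced RNA.

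Values are normalized read counts, which are reads per gene divided by 1 size factor per library. The libraries held between 9727191 and 17433868 reads, and 3 reads, taken as the smallest number detected, corresponded to values between 2.35 and 4.38. *Robo1* itself was at 289, 574 and 541 in *Robo1+/+* and at 130, 214 and 177 in *Robo1-/-* libraries. The luminal progenitor markers *Kit*, *Elf5*, *Aldh1a3*, *Cd14* and *Itgb3* summed to between 15738 and 20604 per library, and 6 hormone-sensing luminal markers (*Prlr*, *Areg*, *Pgr*, *Esr1*, *Foxa1* and *Ly6a*) were expressed as well. In *Robo1+/+* LPs they summed to at least 40664 and at most 54040, while *Robo1-/-* sums lay between 54509 and 65386, so that each *Robo1-/-* library was above each *Robo1+/+* library. Most of each sum was *Prlr* and *Areg*. Taken gene by gene, the genotypes overlapped for all of these markers but *Pgr*. All 6 had log2 fold changes above 0, with a median of 0.31, and *Pgr* alone had an unadjusted p under 0.05 (0.76 ± 0.31 (SE), unadjusted p of 0.044, adjusted p of 0.86, limma). After the correction for GC content given below, 5 of the 6 markers were above 0, with a median of 0.16. Their part in the results on the interferon-stimulated genes was not tested. Of 14 leukocyte markers, 11 were in the table and 6 of those, the pan-leukocyte marker *Ptprc* among them, were at or under 3 reads in every library. Their sum was between 125 and 166 in *Robo1+/+* and between 101 and 130 in *Robo1-/-* libraries and was mostly *Cd68*.

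Promoters of interferon-stimulated genes are known for the ISRE. Of the 34 genes, 26 had a promoter window in RefSeq (GRCm38.p6), covering 250 bases before to 50 bases after the start of transcription. The ISRE core GAAANNGAAA, or TTTCNNTTTC on the other strand, was present in 15 of the 26 (57.7%), against 3.99% of 27025 genes with a window. The GAS letters TTCNNNGAA were present in 7 of the 26 (26.9%), against 9.55%. A match describes the letters only and not binding. Here are the 250 bases upstream of *Isg15* (chr4:156200819-156201068, minus strand), *Ifit1* (chr19:34640639-34640888, plus strand) and *Ifi44* (chr3:151749911-151750160, minus strand), with ISRE matches in capitals. *Isg15* is shown because it holds the most matches (3) and *Ifit1* because its pair of cores is separate. *Ifi44* is shown because it had the largest difference between the genotypes and holds no match to these exact letters. Its window does hold TTTC repeats at other spacings.
Isg15: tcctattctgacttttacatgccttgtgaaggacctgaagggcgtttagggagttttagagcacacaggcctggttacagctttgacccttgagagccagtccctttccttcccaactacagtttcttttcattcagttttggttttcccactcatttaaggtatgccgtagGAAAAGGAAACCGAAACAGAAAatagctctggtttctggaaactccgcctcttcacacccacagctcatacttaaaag
Ifit1: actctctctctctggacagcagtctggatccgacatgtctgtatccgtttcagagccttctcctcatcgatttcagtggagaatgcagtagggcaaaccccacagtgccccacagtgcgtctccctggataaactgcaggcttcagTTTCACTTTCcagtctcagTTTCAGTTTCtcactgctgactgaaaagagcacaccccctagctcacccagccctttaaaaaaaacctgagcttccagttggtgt
Ifi44: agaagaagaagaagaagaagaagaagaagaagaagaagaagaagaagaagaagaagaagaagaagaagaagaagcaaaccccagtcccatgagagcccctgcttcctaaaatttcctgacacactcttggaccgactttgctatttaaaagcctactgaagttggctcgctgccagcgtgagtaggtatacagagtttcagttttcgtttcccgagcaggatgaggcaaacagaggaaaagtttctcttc

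In *Isg15*, 3 overlapping cores lay between 78 and 57 bases before the start. *Ifit1* held 1 core from 104 to 95 and another from 85 to 76 bases before the start. Shorter windows show single or paired cores in genes of several roles, namely the effector *Rsad2* (chr12:26456553-26456582, minus strand), the effector *Oas3* (chr5:120777715-120777744, minus strand), the GTPases *Gbp2* (chr3:142620594-142620623, plus strand) and *Irgm1* (chr11:48871428-48871457, minus strand), and the transcription factor *Stat2* (chr10:128270266-128270295, plus strand).
Rsad2: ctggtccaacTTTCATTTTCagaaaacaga
Oas3: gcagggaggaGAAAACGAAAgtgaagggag
Gbp2: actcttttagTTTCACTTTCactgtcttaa
Irgm1: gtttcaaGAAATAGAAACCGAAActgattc
Stat2: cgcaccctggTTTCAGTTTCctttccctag

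The comparison of the genotypes asks whether LPs express these genes at another level when *Robo1* is lost. After adjustment over all 13692 genes, limma (log2(value + 1), Benjamini-Hochberg) called none of the 34 and 0 genes in all (0.0%), while 231 genes had an unadjusted p under 0.05. DESeq2 called 1 gene, which was not among the 34, and edgeR called 0. At an unadjusted p under 0.05, 3 of the 34 genes were higher in *Robo1-/-* LPs (*Ifi44*, *Rtp4* and *Samd9l*), against 0.767% of all tested genes, and 0 were lower, against 0.92%. The groups did not overlap, with all *Robo1-/-* libraries above, for these 3 genes and *Ifih1*, against 4.83% of all genes. They did not overlap in the other direction for 0 of the 34, against 4.58%. The log2 fold change was above 0 for 26 of the 34 (50.2% of all genes), with a median of 0.33 beside 0.00 for all genes and a range from -0.64 (*Psmb8*) to 1.38 (*Ifi44*).

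The count of positive differences changed with the library left out. Without gh03 the median log2 fold change of the 34 genes was 0.09, and 19 of the 34 were above 0, against 48.6% of all genes. Without both gh03 and gh18 the median was 0.19, and 25 of the 34 were above 0, against 49.8% of all genes. Leaving out any other single library gave medians between 0.16 and 0.54. The number of genes higher at an unadjusted p under 0.05 was 1 without gh03 (0.414% of all genes), 1 without gh09 (0.664%), 7 without gh15 (0.434%), 6 without gh06 (1.55%), 2 without gh12 (0.253%) and 4 without gh18 (1.91%). *Ifi44* was among them in every one of these fits, with log2 fold changes between 1.07 and 1.67.

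**Figure D1:**
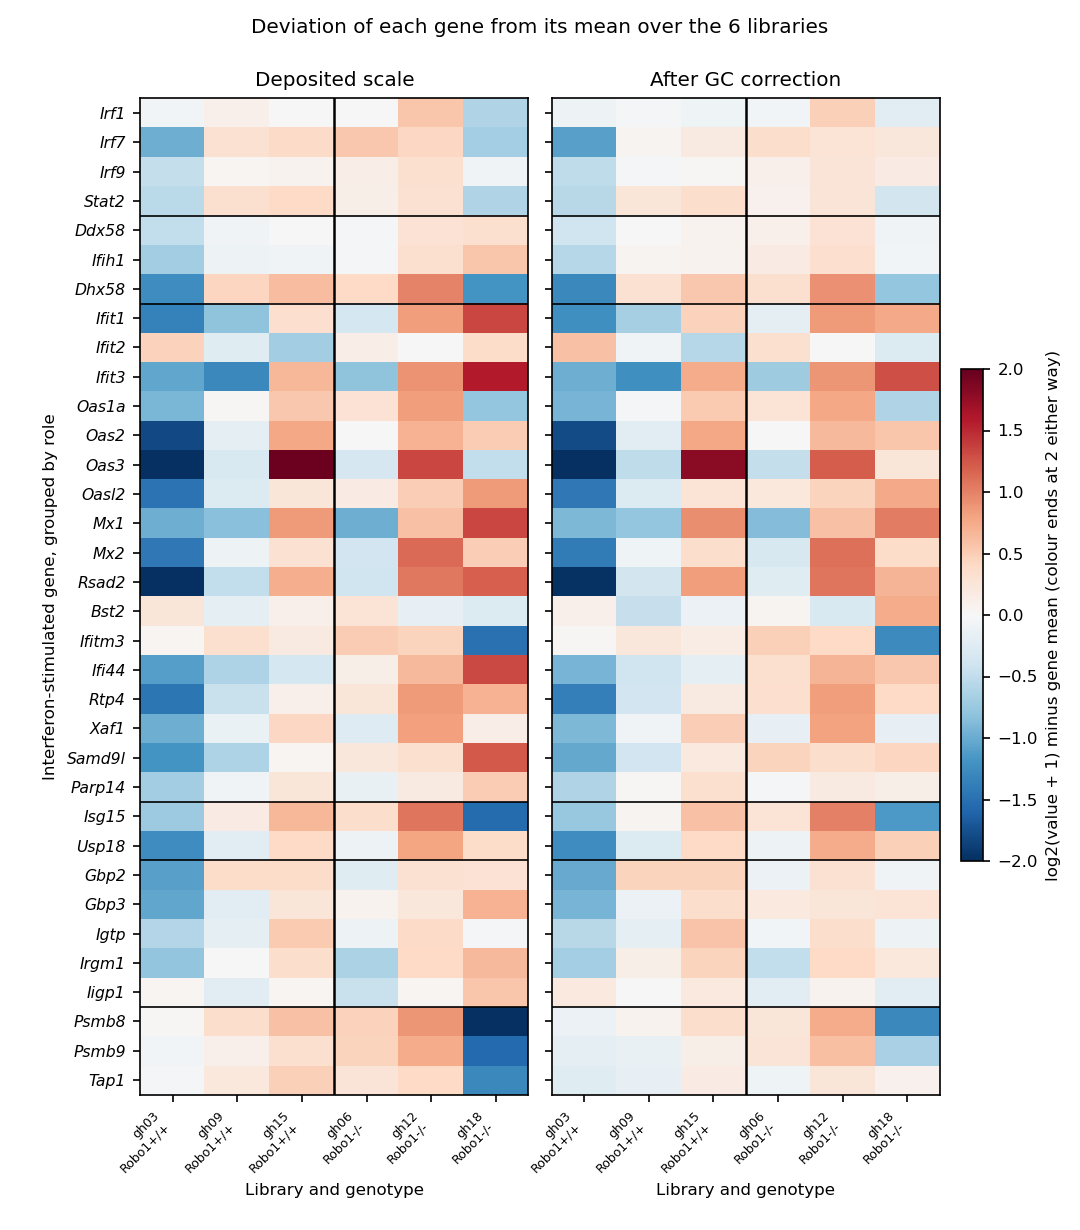
Colour shows each gene's log2(value + 1) minus its mean over the 6 libraries, for the 34 genes in rows grouped by role (top to bottom: transcription factors, RNA sensors, antiviral effectors, ISG15 system, GTPases, antigen processing) and the libraries in columns, on the deposited scale and after the GC correction. The column of gh03 is mostly blue (median -0.94) and that of gh12 mostly red (median 0.52), and the blue of gh18 in the antigen processing rows weakens after correction.

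Most of the 34 genes shared an order of libraries within *Robo1+/+*, and most were higher in gh12 than in gh06, as the heat map of deviations shows. Among *Robo1+/+* libraries, gh03 was the lowest for 30 of the 34 genes (42.6% of all genes) and gh15 the highest for 29 (28.3% of all genes). Over all 6 libraries gh03 was the lowest for 22 of the 34 (17.8% of all genes). Among *Robo1-/-* libraries, gh12 was above gh06 for 30 of the 34 genes, against 51.8% of all genes. The third *Robo1-/-* library, gh18, was the lowest of its genotype for 13 of the 34 (46.1% of all genes) and the highest for 14 (42.9% of all genes). The median distance between the highest and the lowest *Robo1+/+* library was 1.26 on the log2 scale for the 34 genes and 0.46 for all genes.

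The fold between gh15 and gh03, both *Robo1+/+*, was 19.5 for *Oas3*, 7.19 for *Rsad2*, 5.99 for *Oas2*, 3.76 for *Mx1* and 3.70 for *Dhx58*. In contrast, it was 1.04 for *Irf1*, 1.10 for *Ifitm3* and 1.00 for *Iigp1*. In *Ifit2* the order was opposite, with 91.6 in gh03 and 40.3 in gh15. *Irf1* and *Ifitm3*, close in these 2 libraries, spanned 2.22-fold and 4.04-fold over all 6, and they were the genes with the highest levels per length. The sum of the 34 genes was 12485, 17282 and 19735 in gh03, gh09 and gh15, and 17913, 22936 and 17799 in gh06, gh12 and gh18.

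Other genes moved with gh03 too. The sum of 8 basal cell markers was 1883 in gh03 and between 573 and 1335 in the other libraries. Of these, *Krt5*, *Krt14*, *Acta2*, *Myh11* and *Mylk* were highest in gh03. *Cnn1*, *Oxtr* and *Trp63* were highest in other libraries, and *Trp63* was lowest in gh03 (19.1). The hormone-sensing luminal markers had their lowest sum in gh03 (40664). *Esr1*, *Pgr* and *Foxa1* were each lowest there, while *Prlr*, *Areg* and *Ly6a* were lowest in other libraries. Of the 5 luminal progenitor markers, *Aldh1a3* and *Itgb3* had their lowest value in gh03 (1972 and 387), *Kit* and *Elf5* their highest (5644 and 3901), and *Cd14* was at 3835, inside the range of the other libraries. The endothelial list, of which 7 of 8 genes were in the table, summed to 2216 in gh03 and to between 168 and 1513 elsewhere, nearly all of it *Vwf*, while *Cdh5*, *Kdr*, *Cldn5* and *Tie1* were at or under 3 reads in every library. The part of these cells in the low values of gh03 was not tested. In RNA from a sorted population, fewer responding cells and less RNA per cell cannot be told apart.

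Among the 4 transcription factors, none differed between the genotypes at an unadjusted p under 0.05 (limma). *Irf1*, which drives much of the response to interferon gamma, was at 1597, 1783 and 1655 in *Robo1+/+* and at 1678, 2428 and 1093 in *Robo1-/-* libraries. The highest and the lowest value of *Irf1* were thus both in *Robo1-/-* libraries. *Irf9*, the DNA-binding subunit of the STAT complex, was at 894, 1285 and 1312 and at 1368, 1562 and 1186. *Stat2*, its partner, was at 758, 1377 and 1447 and at 1192, 1367 and 724. For both, gh03 was the lowest *Robo1+/+* library and gh18 the lowest *Robo1-/-* library.

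*Irf7*, the factor that amplifies the production of type I interferon, was at 109, 268 and 282 in *Robo1+/+* and at 315, 288 and 134 in *Robo1-/-* libraries. In this gene gh03 and gh18 were far below the other 4 libraries. The log2 fold changes of the 4 factors were -0.03 ± 0.31 (SE) for *Irf1*, 0.18 ± 0.50 for *Irf7*, 0.25 ± 0.24 for *Irf9* and -0.12 ± 0.36 for *Stat2*. *Irf7* and *Irf1* overlap exons of *Phrf1* and *Gm17334* on the opposite strand, and *Irf9* overlaps *Rnf31* on the same strand. How counting treated strand and shared exons is not given in the sources used here, so these values are uncertain.

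The 3 RNA sensors recognise viral RNA in the cytoplasm. *Ifih1* (MDA5, chr2:62433850-62484312 of NCBI37/mm9), which binds long paired RNA, was at 688, 1046 and 1068 in *Robo1+/+* and at 1103, 1397 and 1647 in *Robo1-/-* libraries. The groups did not overlap, but gh15 and gh06 lay close together. Its log2 fold change was 0.57 ± 0.27 (SE), with an unadjusted p of 0.07 and an adjusted p of 0.86 (limma). *Ddx58* (RIG-I, chr4:40150806-40186861), which binds RNA with a free triphosphate end, was at 1018, 1365 and 1425 and at 1410, 1755 and 1785. The groups overlapped by gh15 and gh06, with a log2 fold change of 0.39 ± 0.22. *Dhx58* (LGP2), a relative that tunes the other two, was much lower and was at 56.0, 182 and 207 and at 178, 267 and 58.4. It was low in 1 library of each genotype, gh03 and gh18, and its log2 fold change was 0.13 ± 0.71.

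The antiviral effectors held all 3 genes that passed an unadjusted p under 0.05, and 15 of the 17 had a log2 fold change above 0, with a median of 0.80. Without gh03 this median was 0.31, with 13 of the 17 above 0, and without gh15 it was 1.38. *Ifi44* (chr3:151393886-151412911), an interferon-induced cytoplasmic protein, was at 90.3, 126 and 151 in *Robo1+/+* and at 209, 304 and 484 in *Robo1-/-* libraries. Every *Robo1-/-* library was above every *Robo1+/+* library, and gh18 stood furthest away. The means were 123 ± 30.5 (SD) and 333 ± 140, with a log2 fold change of 1.38 ± 0.39 (SE), an unadjusted p of 0.0093 and an adjusted p of 0.86 (limma). Without gh03 the log2 fold change was 1.18, with an unadjusted p of 0.036.

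*Rtp4* (chr16:23610005-23614308), a chaperone of membrane receptors that is also interferon-induced, was at 116, 233 and 341 in *Robo1+/+* and at 376, 573 and 512 in *Robo1-/-* libraries. The groups did not overlap, although gh15 and gh06 were near each other. Its log2 fold change was 1.19 ± 0.43 (SE), with an unadjusted p of 0.027 (limma), and it was 0.76 without gh03, with an unadjusted p of 0.066. *Samd9l* (chr6:3322257-3349571), which restricts viruses and cell growth, was at 214, 320 and 503 and at 571, 611 and 1148. Here gh06 and gh12 were only just above gh15, and gh18 was far above all others. Its log2 fold change was 1.18 ± 0.41 (SE), with an unadjusted p of 0.024 (limma), and it was 0.88 without gh03, with an unadjusted p of 0.084. The exact two-sided permutation test over 3 against 3 libraries cannot go below 0.1, the value it gave for these 3 genes and *Ifih1*.

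**Figure D2:**
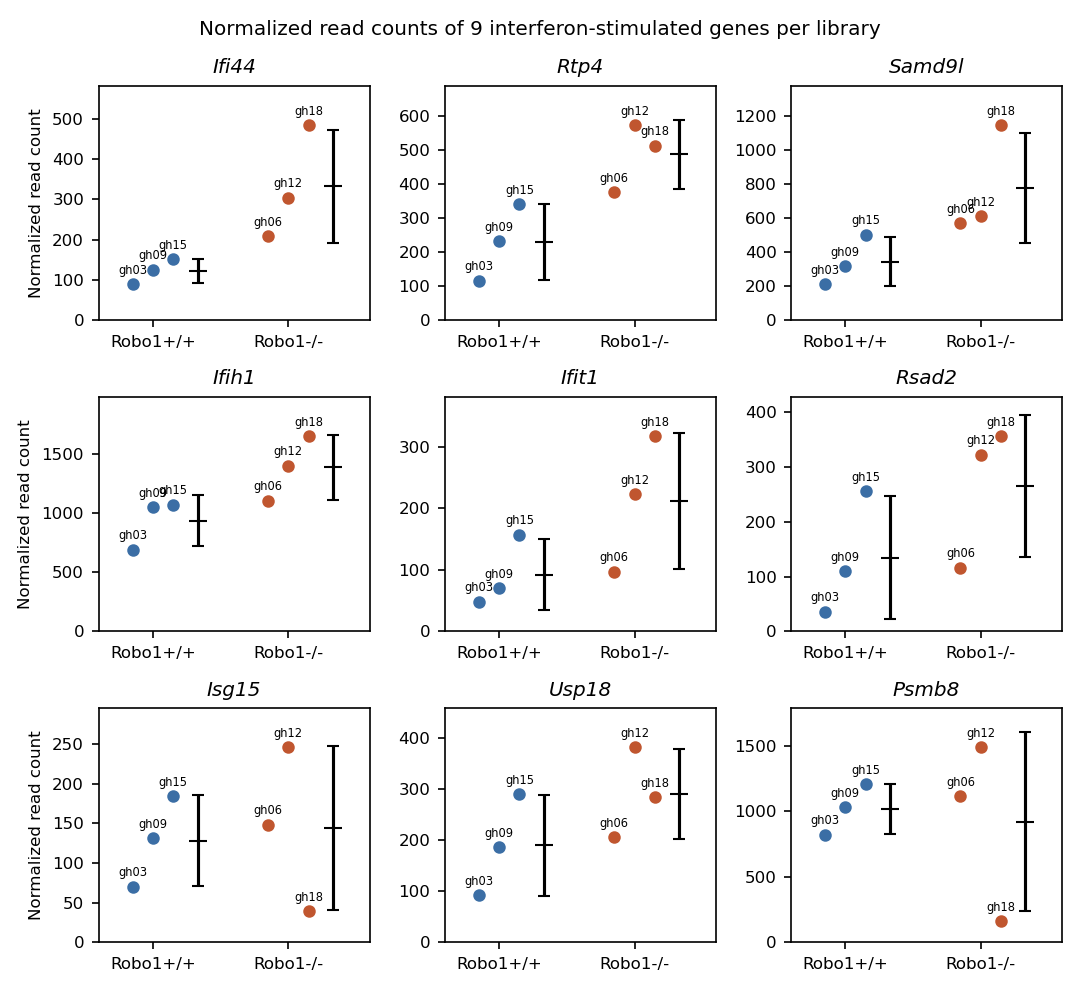
Points are normalized read counts per library for 9 of the genes in *Robo1+/+* (blue) and *Robo1-/-* (orange) LPs, on axes that start at 0, with the mean and SD of the 3 libraries of each genotype in black. *Ifi44*, *Rtp4*, *Samd9l* and *Ifih1* do not overlap between the genotypes, while *Isg15* and *Psmb8* fall in gh18 to 39.4 and 161.

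*Ifit1*, *Ifit3* and *Rsad2* had log2 fold changes above 1 that were not larger than the distance between the highest and lowest *Robo1+/+* library. The same held for *Rtp4* and *Samd9l*. *Ifit1* (chr19:34715361-34724499), which binds viral RNA by its cap, was at 48.4, 70.5 and 157 in *Robo1+/+* and at 96.7, 223 and 317 in *Robo1-/-* libraries. *Rsad2* (viperin, chr12:27127618-27141317), an enzyme that makes a terminator of viral RNA synthesis, was at 35.6, 110 and 256 and at 116, 322 and 356. In both genes gh15 lay above gh06, so the groups overlapped. The log2 fold changes were 1.21 ± 0.59 (SE) and 1.23 ± 0.77, with unadjusted p of 0.079 and 0.15 (limma). DESeq2 on the recovered reads put *Ifit1* under 0.05 too, making 4 genes (0.858% of all genes). *Ifit3*, of the same family, was at 7.63, 6.27 and 27.2 and at 9.21, 32.1 and 52.5, with a log2 fold change of 1.12 ± 0.79. It shares 41.1% of its 75-base stretches with *I830012O16Rik*, so its reads are uncertain.

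The most abundant of the 34 genes per length was *Ifitm3*, which blocks the fusion of viruses with endosomes, with 2439 normalized reads per kilobase of transcript in *Robo1+/+* and 2260 in *Robo1-/-* LPs. Its values were 1500, 1814 and 1647 and 2084, 1997 and 517, so that gh06 and gh12 were above and gh18 far below all *Robo1+/+* libraries. *Bst2* (tetherin), which holds budding viruses at the cell surface, was at 406, 304 and 371 and at 417, 307 and 283. The libraries of *Bst2* lay within a narrow range, with a log2 fold change of -0.11 ± 0.26 (SE). After *Ifitm3* came *Irf1* (785 and 811 per kilobase), *Psmb8* (626 and 566), *Bst2* (471 and 439), *Irf9* (393 and 464) and *Ddx58* (328 and 426). At the other end, *Mx1*, *Ifit3* and *Oas3* were between 7.35 and 17.9 per kilobase.

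Of the other effectors, the OAS enzymes make oligoadenylates that activate RNase L, and *Mx1* and *Mx2* are dynamin-like GTPases that trap viral particles. Their log2 fold changes were between 0.23 (*Oas1a*) and 1.01 (*Oasl2*), and none had an unadjusted p under 0.05 (limma). The direction of *Oas3* differed by tool, since limma gave 0.34 while DESeq2 and edgeR gave -0.3, and its means were 72.6 in *Robo1+/+* and 59.0 in *Robo1-/-* LPs. *Oas3* varied most of the 34 genes, from 8.91 in gh03 to 174 in gh15, both *Robo1+/+*. *Xaf1*, *Parp14* and *Ifit2* had log2 fold changes between 0.33 and 0.46. *Oas1a* shares 47.2% of its 75-base stretches with *Oas1g* and is uncertain for that reason.

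*Isg15*, a ubiquitin-like protein that is joined to other proteins (chr4:155573533-155574927), was at 70.0, 131 and 184 in *Robo1+/+* and at 148, 246 and 39.4 in *Robo1-/-* libraries. Both the highest and the lowest library were *Robo1-/-*. *Usp18* (chr6:121195924-121220934), the protease that removes ISG15 and dampens the type I receptor, was at 92.9, 187 and 291 and at 206, 383 and 285. The groups overlapped, with gh15 above gh06 and gh18. The log2 fold changes were -0.07 ± 0.71 (SE) for *Isg15* and 0.71 ± 0.47 for *Usp18*. Without gh18, that of *Isg15* was 0.68.

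The 5 interferon-inducible GTPases act on the membranes of vacuoles that hold pathogens. All 5 had log2 fold changes above 0, between 0.10 (*Iigp1*) and 0.67 (*Gbp3*), and none had an unadjusted p under 0.05 (limma). *Gbp2* ranged from 322 in gh03 to 887 in gh09, both *Robo1+/+*. Without gh03 the log2 fold changes of *Gbp2*, *Igtp* and *Irgm1* were -0.25, -0.08 and -0.04.

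The 3 genes of antigen processing lie side by side on chromosome 17, from *Psmb9* (chr17:34318933-34324709, minus strand) over *Tap1* (chr17:34324498-34334170, plus strand) to *Psmb8* (chr17:34334666-34338399, plus strand). *Psmb8* and *Psmb9* are subunits of the immunoproteasome and *Tap1* is a subunit of the peptide transporter that loads MHC class I. *Psmb8* was at 821, 1032 and 1204 in *Robo1+/+* and at 1114, 1489 and 161 in *Robo1-/-* libraries. The highest library, gh12, and the lowest, gh18, were both *Robo1-/-*, and gh18 was far below all others. *Psmb9* and *Tap1* had their lowest value in gh18 too, 96.3 and 271, against 274 to 476 and 649 to 930 elsewhere. The log2 fold changes were -0.64 ± 0.79 (SE) for *Psmb8*, -0.25 ± 0.59 for *Psmb9* and -0.43 ± 0.46 for *Tap1*. Without gh18 all 3 were above 0, at 0.35, 0.47 and 0.11. *Psmb9* and *Tap1* overlap on opposite strands, so their reads may be mixed. *Psmb8* overlaps exons of Gm20496 on the opposite strand, and *Dhx58* those of Gm11547.

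The values of gh18 followed the GC content of the transcripts. The GC content of the 34 genes ran from 38.8% (*Samd9l*) to 57.3% (*Tap1*), with a median of 49.3%. Of the 19 genes with less than 50% GC, gh18 exceeded the mean of the remaining 5 in 18, by a median of 0.79 on the log2 scale. Of the 15 genes at 50% or more it did so in 2, with a median of -0.82. The same medians over all tested genes with a GC value were 0.59 and -0.91. Across genes, which are not independent replicates and here share 1 library, Spearman's rho between GC content and this deviation was -0.81 for the 34 genes and -0.81 for the 12551 genes.

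**Figure D3:**
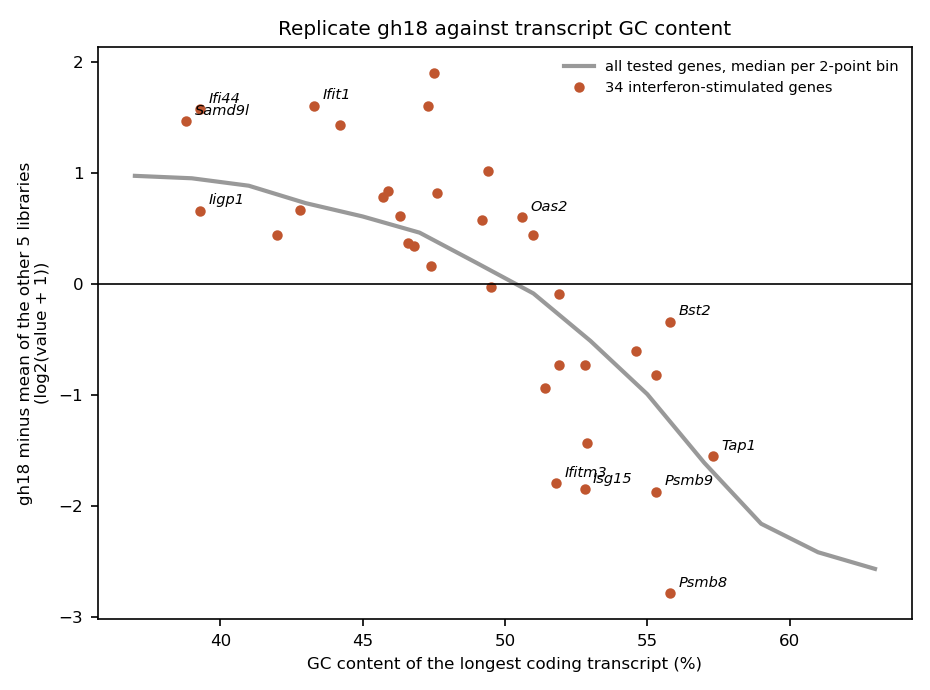
Each orange point is 1 of the 34 genes, with the GC content of its longest coding transcript (%) on the x axis and gh18 minus the average over the remaining 5 libraries, in log2(value + 1), on the y axis. The grey line is the median of all tested genes per bin of GC content, and the 34 points follow it from above 0 at low GC to below 0 at high GC (rho -0.81).

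When a smooth curve on GC content was subtracted from every library, the genotypes were compared again. With this correction 3 of the 34 genes were higher at an unadjusted p under 0.05 (0.892% of all genes) and 0 were lower (0.669%), and the 3 were again *Ifi44*, *Rtp4* and *Samd9l*. Their corrected log2 fold changes were 1.02 ± 0.25 (SE), 1.05 ± 0.39 and 0.81 ± 0.30, with unadjusted p of 0.0049, 0.031 and 0.03 (limma). The groups did not overlap, with *Robo1-/-* above, for 5 genes (3.43% of all genes) and with *Robo1-/-* below for 0 (3.16%). These 5 were *Ifi44*, *Rtp4*, *Samd9l*, *Irf7* and *Irf9*, and *Ifih1* was no longer among them. The corrected log2 fold change was above 0 for 30 of the 34 (50.5% of all genes), with a median of 0.31. The pattern of gh03 stayed, since gh03 was the lowest of the 6 libraries for 25 of the 34 genes (20.9% of all genes). After correction gh18 was the lowest for 5 of the 34 (26.5% of all genes) and the highest for 4 (29.2% of all genes). Its deviation from the gene mean was still -1.29 for *Psmb8*, -1.27 for *Ifitm3* and -1.15 for *Isg15*.

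**Figure D4:**
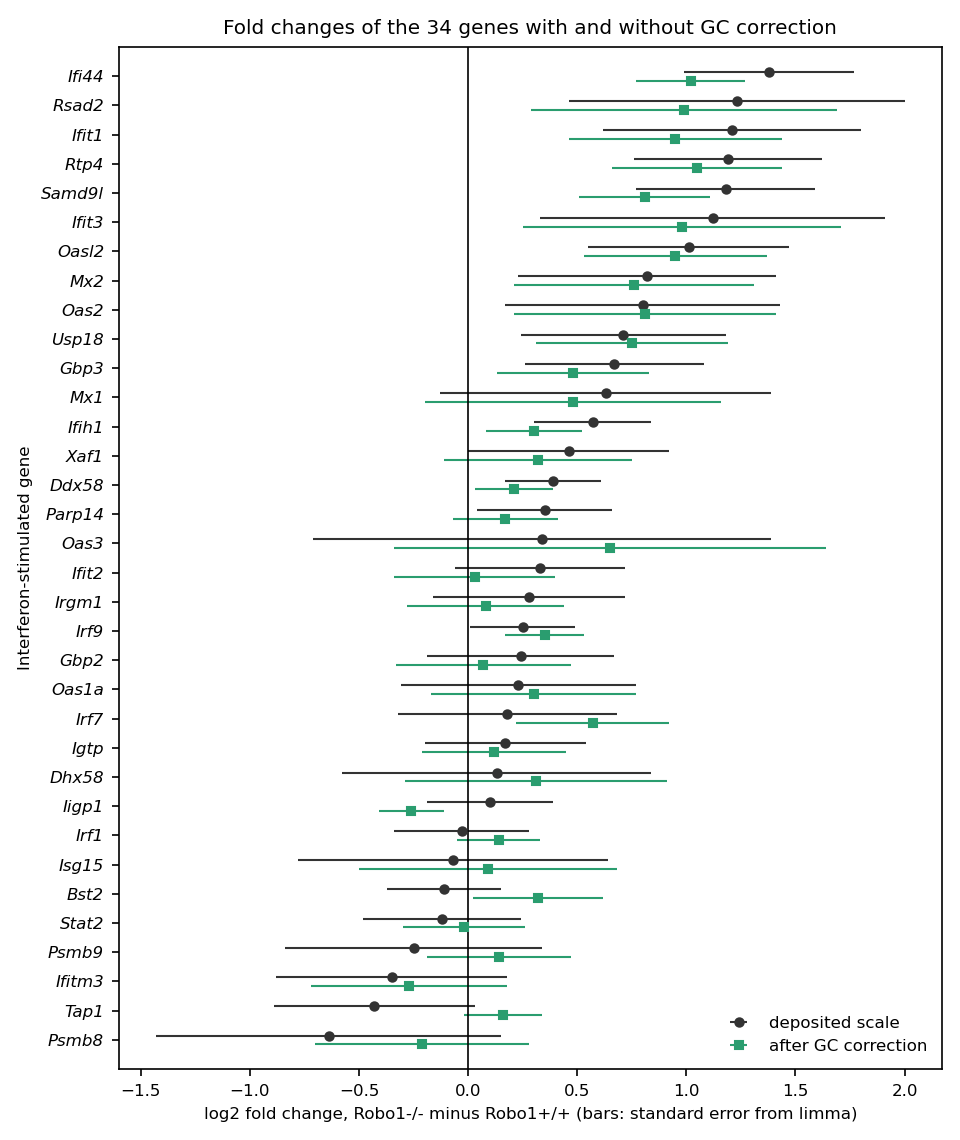
Points are log2 fold changes, *Robo1-/-* minus *Robo1+/+*, with bars of 1 standard error from limma, for the 34 genes in order of the fold change on the deposited scale (circles) and after GC correction (squares). Most points lie to the right of 0 (26 on the deposited scale and 30 after correction), and *Psmb9*, *Tap1*, *Bst2*, *Irf1* and *Isg15* move from below to above 0.

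For the 19 GC-poor genes the median log2 fold change went from 0.63 to 0.48 with the correction, and for the 15 GC-rich ones from -0.03 to 0.30. Those of *Psmb9* and *Tap1* were 0.14 and 0.16 and that of *Psmb8* was -0.21. That of *Irf7* was 0.57, and that of *Iigp1*, at 39.3% GC, was -0.26. With the correction and without gh03, the median over the 34 genes was 0.11 and *Ifi44* alone had an unadjusted p under 0.05. The share of all genes is not given for that fit. Limma with a quality weight per library put *Ifih1* under 0.05 too, making 4 genes, in a fit where 5.69% of all genes were higher at that threshold.

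Upstream of the 34 genes, 15 interferon genes were listed, of which 4 were in the deposited table and were barely detected. *Ifnb1* was at 3.82 in gh03, at 2.92 in gh18 and at 0 in the other 4 libraries, and *Ifnz*, *Il28a* and *Il28b* did not exceed 3.66 in any library. None of these passed the filter on low reads. The receptors were all expressed. *Ifnar1* and *Ifnar2*, the chains of the type I receptor, were between 792 and 1338 and between 502 and 574, and their log2 fold changes were -0.16 ± 0.26 (SE) and -0.04 ± 0.20. *Ifngr1* and *Ifngr2*, the chains for interferon gamma, had -0.17 ± 0.29 and -0.32 ± 0.25. *Il28ra* and *Il10rb*, the chains for type III interferon, had 0.03 ± 0.26 and 0.18 ± 0.28.

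The kinase *Jak1* was between 3737 and 5749 in all libraries, with a log2 fold change of 0.20 ± 0.21 (SE). The kinase *Tyk2* was between 453 and 545 in 5 libraries and at 152 in gh18, with a log2 fold change of -0.66 ± 0.46 that became -0.09 after the GC correction. Of the 45 pathway genes listed, 28 were tested, 14 had a log2 fold change above 0 (9 without gh03), and 1 was lower at an unadjusted p under 0.05. This was *Socs1*, the feedback inhibitor of JAK kinases, at 22.9, 35.3 and 20.6 in *Robo1+/+* and at 16.1, 4.58 and 5.84 in *Robo1-/-* libraries. Each *Robo1-/-* library was below each *Robo1+/+* library. The log2 fold change was -1.61 ± 0.55 (SE), with an unadjusted p of 0.021 and an adjusted p of 0.86 (limma), and after the GC correction it was -0.48, with an unadjusted p of 0.54. Next by p were the RNA sensor *Tlr3* (0.57 ± 0.32) and the transcription factor *Irf5* (-1.07 ± 0.62).

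Genes that work with the antigen processing group, or that are known to respond to interferon but were not among the 34, were compared in the same fit. Of 13 class I presentation genes, all tested, 0 were called at an unadjusted p under 0.05 by limma, 7 had a log2 fold change above 0, and the median was 0.00. *Psmb10*, the remaining immunoproteasome subunit, was between 268 and 356 in 5 libraries and at 19 in gh18. The peptide trimmer *Erap1* and the chaperone *Pdia3* had log2 fold changes of 0.30 ± 0.31 (SE) and 0.27 ± 0.26. Of 40 further interferon-inducible genes, 30 clusters were tested and 18 had a log2 fold change above 0, with a median of 0.24 and 0 called. Without gh03, 14 of 31 tested clusters were above 0 (48.6% of all genes), with a median of -0.05. Without gh18, 28 of 31 were, with a median of 0.31. The share of all genes above 0 is not given for the fit without gh18, so that count cannot be set against it. The smallest p among them belonged to *Trim30a* (1.28 ± 0.55), *Cmpk2* (0.85 ± 0.37) and *Dtx3l* (0.48 ± 0.22). With the GC correction, 12 class I presentation genes and 30 clusters of the further genes were tested. In each of these lists 1 gene was higher at an unadjusted p under 0.05 (limma), against 0.892% of all genes. These were *Cmpk2* (p of 0.036) and the peptide-loading chaperone *Tapbp* (p of 0.045). In the list of further genes, gh03 was the lowest *Robo1+/+* library for 25 of 30 genes and gh15 the highest for 24. Of the 28 pathway genes tested, gh03 was the lowest *Robo1+/+* library for 22, and of the class I presentation genes for 7 of 13. The share of all genes was 42.6%.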

How the data were processed

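RNA of FACS-purified LPs from 3 *Robo1+/+* and 3 *Robo1-/-* libraries was used, and genotypes were taken from the sample labels. According to the methods, the authors cut reads to 75 bases, used bowtie2 to discard those from repeats, aligned with TopHat against NCBI37/mm9 and obtained normalized counts from DESeq2 (DESeq in the submitters' processing notes). The counting tool and its use of strand are not given in the sources used here. The deposited values are a signal per known-gene cluster: read counts divided by 1 size factor per library. Whole reads were recovered by dividing each value by that of 1 read (100% whole within 0.006). Recovered reads were 10494297, 17433868 and 14298652 for gh03, gh09 and gh15, and 12183461, 15185303 and 9727191 for gh06, gh12 and gh18. The limit of 3 reads covers counting error only, and p-values measure the spread between libraries of pooled animals.

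The values were tested as log2(value + 1) with limma 3.58.1 (R 4.3.3, empirical Bayes trend) on genes kept by filterByExpr of edgeR 4.0.16, with Benjamini-Hochberg adjustment over all tested genes. Fold changes of low genes are understated on this scale. DESeq2 1.42.0, edgeR's quasi-likelihood test and limma-voom with quality weights were run on the recovered reads. Further alternatives were TMM and upper-quartile scaling, filters, pseudocounts of 0.5 and 5, each library left out, and a GC correction, for which a lowess curve (span 0.3) of each library's log2 deviation on transcript GC content was subtracted for the 12551 tested genes (91.7%) with a GC value. Scripts were tested on simulated data.

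Positions, GC content and lengths come from GENCODE M1 (NCBI37/mm9). Promoter sequences and their coordinates come from RefSeq (GRCm38.p6), and 8 of the 34 genes had no window there. The members and gene lists were chosen with earlier results of these data known. Values in every library are given for genes with an unadjusted p under 0.05, without overlap, among the 6 highest per length or the 6 largest fold changes, and for the transcription factors, RNA sensors, *Isg15* and *Usp18*. The other 16 are given by range and counts. From other lists, receptors, *Jak1* and *Tyk2* and the genes with p under 0.05, or the 3 smallest p, are named. Another gene that this rule names is not reported here.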

Additional observations from a re-analysis of the deposited data

How the results depend on the processing

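Neither scaling, pseudocount nor filter on low values turned the direction of any named gene or moved the counts of the 34 genes called by over 1.5 times. DESeq2 called 1 gene in all at an adjusted p under 0.05, where limma, edgeR and every other alternative called 0. At an unadjusted p under 0.05, limma called 126 genes lower and 105 higher, limma-voom with quality weights 862 and 779. The number of the 34 genes higher at an unadjusted p under 0.05 was between 1 and 7 when 1 library was left out. A GC-corrected fit without gh03 gave 1, and a fit without gh03 and gh18 gave 2, both chosen after seeing the data. The share of all genes is not given for these 2 fits, so neither count can be set against it. Their median log2 fold changes were 0.11 and 0.19, and over the single libraries left out the median was between 0.09 and 0.54. With 2 libraries in a group, these fits assume the same spread in both groups.

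The GC correction turned the log2 fold changes of *Irf1* (0.14), *Bst2* (0.32), *Isg15* (0.09), *Iigp1* (-0.26), *Psmb9* (0.14), *Tap1* (0.16) and *Erap1* (-0.02). DESeq2 turned *Irf1* (0.05), *Oas3* (-0.3), *Isg15* (0.17), *Psmb9* (0.04) and *Il28ra* (-0.0), and edgeR turned *Irf1* (0.04), *Oas3* (-0.3), *Isg15* (0.18), *Psmb9* (0.03) and *Il28ra* (-0.01). Quality weights turned *Irf1* (0.37), *Ifitm3* (0.22), *Isg15* (0.54), *Gbp2* (-0.01), *Iigp1* (-0.01), *Psmb8* (0.28), *Psmb9* (0.42), *Tap1* (0.0) and *Il28ra* (-0.05). The cause was not tested.

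With each library left out in turn, the log2 fold change ranged from -0.31 to 0.27 for *Irf1*, from -0.26 to 0.57 for *Irf7*, from -0.42 to 0.15 for *Stat2*, from -0.46 to 0.76 for *Dhx58*, from -0.16 to 0.68 for *Oas1a*, from -0.66 to 1.41 for *Oas3*, from -0.7 to 0.31 for *Ifitm3*, from -0.63 to 0.68 for *Isg15*, from -0.25 to 0.48 for *Gbp2*, from -0.08 to 0.48 for *Igtp*, from -0.04 to 0.67 for *Irgm1*, from -0.16 to 0.34 for *Iigp1*, from -1.25 to 0.35 for *Psmb8*, from -0.68 to 0.47 for *Psmb9* and from -0.74 to 0.11 for *Tap1*. Outside the 34 it ranged from -0.1 to -0.0 for *Ifnar2*, from -0.21 to 0.16 for *Il28ra*, from -0.02 to 0.31 for *Il10rb* and from -0.04 to 0.53 for *Erap1*. Of the 34 genes, 18 kept their direction in all 16 alternatives that change 1 choice, but of these *Mx1* (-0.21) and *Parp14* (-0.08) turned without gh03 and gh18, and *Parp14* (-0.09) and *Xaf1* (-0.06) in the GC-corrected fit without gh03. No paired analysis was made. Ordered by number, the library names alternate between the genotypes from gh03 to gh18, but the sample titles state no pairing.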

Other observations

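Of the guanylate-binding proteins outside the 34 genes, *Gbp4*, *Gbp5*, *Gbp8* and *Gbp9* were highest in gh15, a *Robo1+/+* library, and *Gbp6* in gh18, a *Robo1-/-* library. *Gbp4* was at 33.8 in gh15 and between 2.92 and 6.36 in the other libraries. *Gbp5* was at 17.8 in gh15 and between 1.27 and 5.75 elsewhere, and *Gbp9* at 34.7 in gh15 and between 3.82 and 26.3 elsewhere. *Gbp6* was far more abundant, at 174, 213 and 390 in *Robo1+/+* and at 227, 393 and 438 in *Robo1-/-* libraries. These genes were named after their values were seen, and only *Gbp6* and *Gbp9* passed the filter on low reads.

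The genes with an ISRE core in their promoter window had a median log2 fold change of 0.28 and a median deviation of -0.79 in gh03, and the 11 genes with a window but no core had 0.25 and -0.48. The 7 genes with the GAS letters (*Irf1*, *Ifit2*, *Oas1a*, *Bst2*, *Ifitm3*, *Igtp* and *Psmb8*) had a median deviation of 0.03 in gh03, and the 19 without them had -0.98. These are descriptions of few genes with no test.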
